A study of Mus musculus with 36 samples.

Results

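Chromatin accessibility was compared between mouse dendritic cells given Sendai virus together with 3',3'-cGAMP (ScG), Sendai virus alone (S) and 3',3'-cGAMP alone (cG), to find which loci each stimulus adds to the other. These 6 libraries, 2 per group, were taken by their labels from a series of 36 assay for transposase-accessible chromatin (ATAC-seq) libraries in 18 groups of 2. All cells were bone-marrow-derived dendritic cells grown with GM-CSF from female C57BL/6J mice 6 to 8 weeks of age, without any genetic change given in the labels, and harvested after 6 h. The series crosses ligands of innate immune receptors, and 30 further libraries were used to estimate the spread or as a background: unstimulated cells (Ctrl), the ligand labelled PAM alone (P) or with virus (PS), cGAMP (PcG) or both (PScG), zymosan labelled as depleted alone (Z) or with virus (ZS), cGAMP (ZcG) or both (ZScG), and 6 groups not described here that hold LPS, the ligand labelled HMW, or mixtures of these. Each group is a whole culture and not a sorted cell type, so fewer cells with an open site and less opening per cell cannot be told apart. Nothing in the labels says that the 2 libraries of a group come from separate animals or cultures, and p-values then measure only the spread between these libraries, which may be technical.

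Sendai virus is an RNA virus whose replication products are detected in the cytosol by RIG-I (Ddx58), which signals through the adaptor MAVS. 3',3'-cGAMP is a bacterial cyclic dinucleotide that binds STING directly, downstream of the DNA sensor cGAS. Both routes activate the kinase TBK1, the transcription factors IRF3 and NF-kappaB, and the gene Ifnb1 for interferon beta. Secreted interferon then acts through its receptor on interferon-stimulated genes such as Rsad2, Irf7 and Cxcl10. ATAC-seq counts fragments cut where DNA is accessible, at active promoters and enhancers. A peak in what follows is 1 of the 119464 regions tested, its level is in CPM (counts outside the mitochondrial peak, scaled to a common library size), and its difference is a log2 fold change with its standard error.

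4 promoters, picked from genes with a called peak, serve as examples of the shared pathways in sequence. The peaks over them gained accessibility with every stimulus. In the combination those of Cxcl10, Socs1 and Irgm1 were lower than with cGAMP alone and that of Nfkb2 was higher. Whether a motif goes with the direction of change was not tested. Each is the 250 bases upstream of a RefSeq start site (GRCm38.p6), 5' to 3' on the gene's strand, with capitals for matches to the interferon regulatory factor (IRF) motif GAAANNGAA and the kappaB motif GGGANTTCC, either strand. Cxcl10 (chr5:92348890-92349139, minus strand) encodes an interferon-induced chemokine, Socs1 (chr16:10785537-10785786, minus) a feedback inhibitor of cytokine signalling, Irgm1 (chr11:48871421-48871670, minus) an immunity-related GTPase, and Nfkb2 (chr19:46304487-46304736, plus) an NF-kappaB subunit precursor.
Cxcl10: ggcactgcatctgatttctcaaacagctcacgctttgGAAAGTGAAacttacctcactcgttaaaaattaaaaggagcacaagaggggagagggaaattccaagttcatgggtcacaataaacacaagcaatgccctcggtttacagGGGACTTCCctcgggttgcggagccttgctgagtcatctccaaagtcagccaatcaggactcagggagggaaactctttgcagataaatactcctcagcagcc
Socs1: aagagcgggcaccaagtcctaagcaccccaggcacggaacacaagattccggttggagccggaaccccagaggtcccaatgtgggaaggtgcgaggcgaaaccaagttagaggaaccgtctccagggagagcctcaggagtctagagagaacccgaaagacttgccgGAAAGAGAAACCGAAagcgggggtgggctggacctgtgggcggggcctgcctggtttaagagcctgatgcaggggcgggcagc
Irgm1: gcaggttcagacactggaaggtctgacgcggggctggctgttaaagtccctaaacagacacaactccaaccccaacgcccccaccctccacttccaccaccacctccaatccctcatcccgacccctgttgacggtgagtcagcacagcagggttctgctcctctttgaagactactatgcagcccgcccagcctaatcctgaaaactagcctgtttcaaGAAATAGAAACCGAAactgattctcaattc
Nfkb2: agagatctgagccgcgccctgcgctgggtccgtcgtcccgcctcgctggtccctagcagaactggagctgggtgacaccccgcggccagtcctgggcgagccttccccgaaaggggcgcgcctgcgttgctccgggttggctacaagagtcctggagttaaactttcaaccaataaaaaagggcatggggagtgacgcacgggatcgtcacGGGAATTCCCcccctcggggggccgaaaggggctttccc
The Cxcl10 promoter holds 1 IRF match and 1 kappaB match, while Socs1 and Irgm1 each hold 2 overlapping IRF matches and no kappaB match in this window. The Nfkb2 promoter printed holds 2 overlapping kappaB matches and no IRF match. These matches are a single stretch, GGGAATTCCC, read on each strand. The promoters of the other Nfkb2 start sites (46305695 and 46305930) hold no kappaB match and no IRF match. Of all 32851 promoters of this length in the table, 7.13% hold an IRF match and 1.43% a kappaB match. Among the interferon-stimulated effector genes, 15 of 33 promoters (45.5%) hold an IRF match, and among NF-kappaB genes 4 of 18 (22.2%) hold a kappaB match. A match describes the letters and is not evidence of binding.

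Total counts ranged from 21303203 to 29512387 over the 6 libraries, with 10786202 to 15132150 left outside the mitochondrial chromosome. The share of counts on that chromosome separated the combination from both single stimuli. It was 57.3% and 61.5% in the 2 ScG libraries, 47.1% and 48.7% in S, and 45% and 47.3% in cG, against 61.9% and 60.1% in Ctrl. With PAM the combination and its single partners were alike, at 45.7% and 44.4% in PScG, 46.6% and 45% in PS, and 44.5% and 45.7% in PcG. With zymosan the shares were 57.9% and 58.7% in ZScG, 58.1% and 51.0% in ZS, and 62.8% and 63.1% in ZcG. Among S, cG and ScG this share and the treatment cannot be told apart. Markers of the labelled cells were open: 8 of 9 dendritic cell and macrophage genes had a peak at their start or near a gene end. Their summed level was 217 to 230 CPM in S, 205 to 224 in cG and 208 to 218 in ScG. Of the markers of other cells, none of 6 T or NK cell genes, none of 4 erythroid genes, 1 of 6 neutrophil genes, 1 of 5 B cell genes, 2 of 5 mast cell or basophil genes and 1 of 4 fibroblast genes had one. The neutrophil marker with a peak, Camp, summed to 12.4 and 15.4 CPM in S, 12.7 and 14.7 in cG, and 16.6 and 18.5 in ScG, and Elane, Mpo, Prtn3, Ngp and Ly6g had none.

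**Figure D1:**
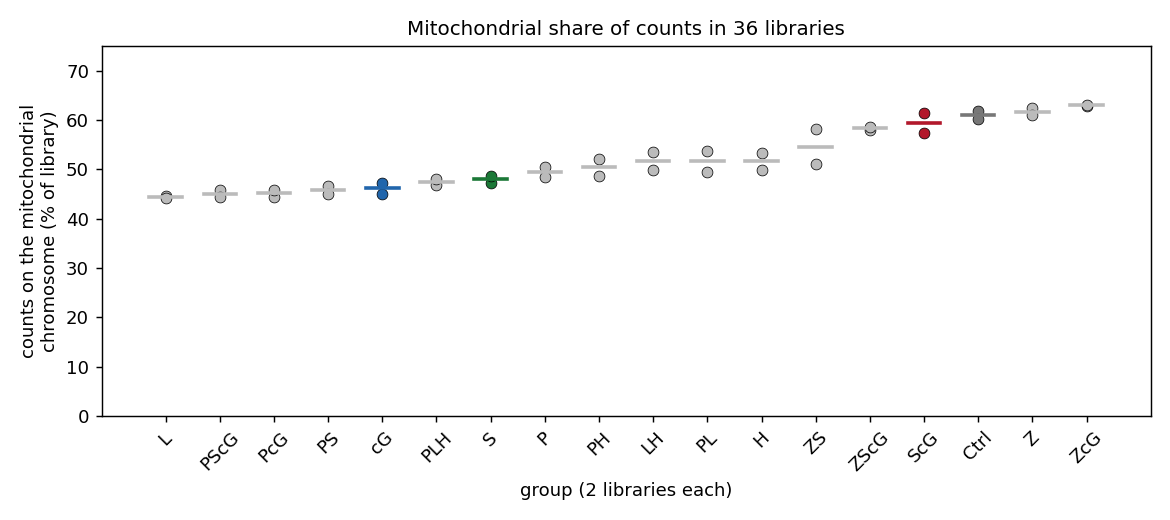
Percentage of each library's counts that fall on the mitochondrial chromosome, for all 36 libraries by group; each point is 1 library and 2 points make a group. The 2 ScG libraries (57.3% and 61.5%) lie with Ctrl and the zymosan groups, above the S libraries (47.1% and 48.7%) and the cG libraries (45% and 47.3%).

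Without another ligand, far more peaks changed when Sendai virus was added to cGAMP than when cGAMP was added to Sendai virus. Against S, accessibility in ScG rose at 570 peaks (0.477% of the peaks tested) and fell at 122 (0.102%). Against cG it rose at 3609 peaks (3.02%) and fell at 2291 (1.92%). Of these calls 82.4% were higher against S and 61.2% against cG, at an adjusted p under 0.05 with edgeR's quasi-likelihood test. Each single stimulus had already moved much of the landscape, since S was higher than Ctrl at 16885 peaks (14.1%), cG at 13916 (11.6%) and ScG at 17165 (14.4%). At 349 peaks (0.292%) ScG was higher than both single stimuli, and at 90 (0.0753%) lower than both. Of these, 137 (0.115%) were also higher and 61 (0.0511%) also lower than in Ctrl, and so lay outside the range of all the other 3 groups. The 2 comparisons share the ScG libraries and are set side by side here for that reason.

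The direction of these counts depends on the scaling and their size on each library. Scaling only by the total of counts outside the mitochondrial peak moved the median of all peaks to -0.28 against S and -0.25 against cG. It left 3.75% and 13.8% of the calls higher. The counts against S fell to 65 higher and 15 lower without S replicate 1, 174 and 25 without S replicate 2, 269 and 90 without ScG replicate 1, and 116 and 22 without ScG replicate 2. Against cG they fell to 2060 and 1513 without cG replicate 1, 1412 and 524 without cG replicate 2, 1702 and 1093 without ScG replicate 1, and 1834 and 774 without ScG replicate 2. With the mitochondrial share as a covariate over all 36 libraries, 5 peaks were higher and 1 lower against S, and 169 higher and 23 lower against cG. The groups other than S, cG, ScG and ZS were split by mean share into 4 high-share groups (Ctrl, Z, ZcG and ZScG, 58.3% to 63.0%) and 10 low-share groups (44.4% to 51.6%). At 456 peaks (0.382% of those tested) all 8 high-share libraries lay above all 20 low-share libraries. These peaks made up 66 of the 570 (11.6%) and 59 of the 3609, and without them 504, 3550 and 320 peaks were higher than S, than cG and than both. They held none of the 137, but the 137 were chosen as higher than Ctrl, itself a high-share group. That choice selects against such peaks, so the count cannot tell whether the share had a part in the 137. Among the 570, they were 0 of the 179 higher than Ctrl, 48 of the 332 not called against Ctrl and 18 of the 59 lower than Ctrl.

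**Figure D2:**
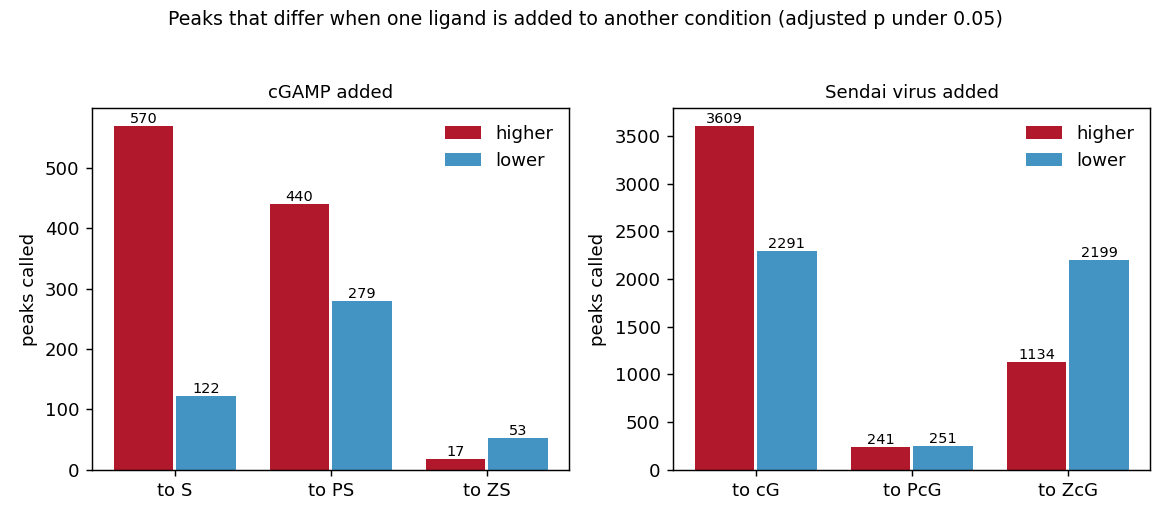
Number of peaks called higher (red) or lower (blue), on a separate axis in each panel, at an adjusted p under 0.05 when cGAMP is added to Sendai virus and when Sendai virus is added to cGAMP, without another ligand, with PAM and with zymosan. Without another ligand the virus adds 3609 higher and 2291 lower peaks to cGAMP, while cGAMP adds 570 and 122 to the virus.

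At genes of the antiviral programme many peaks were more open than in Ctrl with either stimulus, and the combination was compared with each. A gene's peak was the one over its start site or, where no start site was given, one within 1 kb of a gene end. The choice thus differs from that of the start-site peaks set beside it below. It gave 62 distinct peaks for 63 genes of nucleic acid sensing, interferon signalling and interferon-stimulated effectors. Of these peaks, 36 were higher in S than in Ctrl, 42 in cG and 32 in ScG. None was higher or lower in ScG than in S, and against cG none was higher and 7 were lower. Over all 9554 start-site peaks 1.10% were higher and 0.0942% lower than in S, and 2.25% higher and 3.11% lower than in cG, so that a count of 0 higher among 62 is near the background. The medians of the 62 peaks were -0.14 against S and -0.18 against cG, beside 0.01 and -0.06 for all start-site peaks and 0.01 for all tested peaks in both comparisons. No peak of these lists was higher in ScG than in either single stimulus under any of the 16 alternative settings.

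Among 18 genes of nucleic acid sensing, Irf7 and Ifi204 fell against cG, and the list's median was -0.15 against S and -0.23 against cG. The call for Ifi204 (-0.47 ± 0.11) was lost without cG replicate 2 (-0.33, adjusted p = 0.219) and without ScG replicate 1 (-0.37, adjusted p = 0.13). The peak over the start of Irf7 (chr7:141264642-141266887), the transcription factor that amplifies interferon production, had 19.1 and 18 CPM in Ctrl, 35.4 and 31.8 in S, 39.6 and 39.3 in cG, and 26.6 and 27.1 in ScG. The ScG libraries lay between Ctrl and both single stimuli, with no overlap. The log2 fold change was -0.56 ± 0.12 against cG (adjusted p = 0.00109) and -0.32 ± 0.12 against S (adjusted p = 0.247). The start of Ddx58, which encodes RIG-I, had 14.9 and 17.6 CPM in S, 15.7 and 19.2 in cG, and 12.7 and 12.9 in ScG, and passed neither test. A peak inside the gene of the receptor Sting1 was low in every group, at 2.60 and 3.28 CPM in ScG and at most 5.65 in the others.

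Among 15 genes of interferon signalling, Irf1 and Socs1 fell against cG, and the medians were -0.14 and -0.07, the latter at the level of all start-site peaks. The call for Irf1 (-0.37 ± 0.12) was lost without cG replicate 1 (-0.25, adjusted p = 0.394), ScG replicate 1 (-0.34, adjusted p = 0.239) or ScG replicate 2 (-0.39, adjusted p = 0.147). The Socs1 peak (chr16:10784113-10787839), over the promoter with the paired IRF matches printed above, had 46.4 and 51.7 CPM in Ctrl, 89.0 and 84.3 in S, 103 and 102 in cG, and 78.0 and 72.9 in ScG. Every ScG library was below every library of both single stimuli, and the difference was -0.44 ± 0.09 from cG (adjusted p = 0.000494) and -0.20 ± 0.09 from S (adjusted p = 0.410). The interferon beta gene itself differed between its start and the region beside it. The peak over the start of Ifnb1 (chr4:88522158-88523152) had 9.62 and 10.4 CPM in S, 5.17 and 5.66 in cG, and 6.98 and 8.41 in ScG, against 1.31 and 2.03 in Ctrl, and ScG passed neither test. The ScG values there lay between the 2 single stimuli. The peak 119 bases beyond the gene (chr4:88519372-88521906) had 20.3 and 22.9 CPM in S, 8.04 and 8.46 in cG, and 11.4 and 11.8 in ScG. It fell by 0.90 ± 0.21 against S (adjusted p = 0.0108) and was 0.49 ± 0.22 above cG (adjusted p = 0.202), and the fall was called in 11 of 16 alternatives. It was not called whichever library of S or ScG was left out, with -0.81 to -0.98 and adjusted p from 0.0795 to 0.175.

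**Figure D3:**
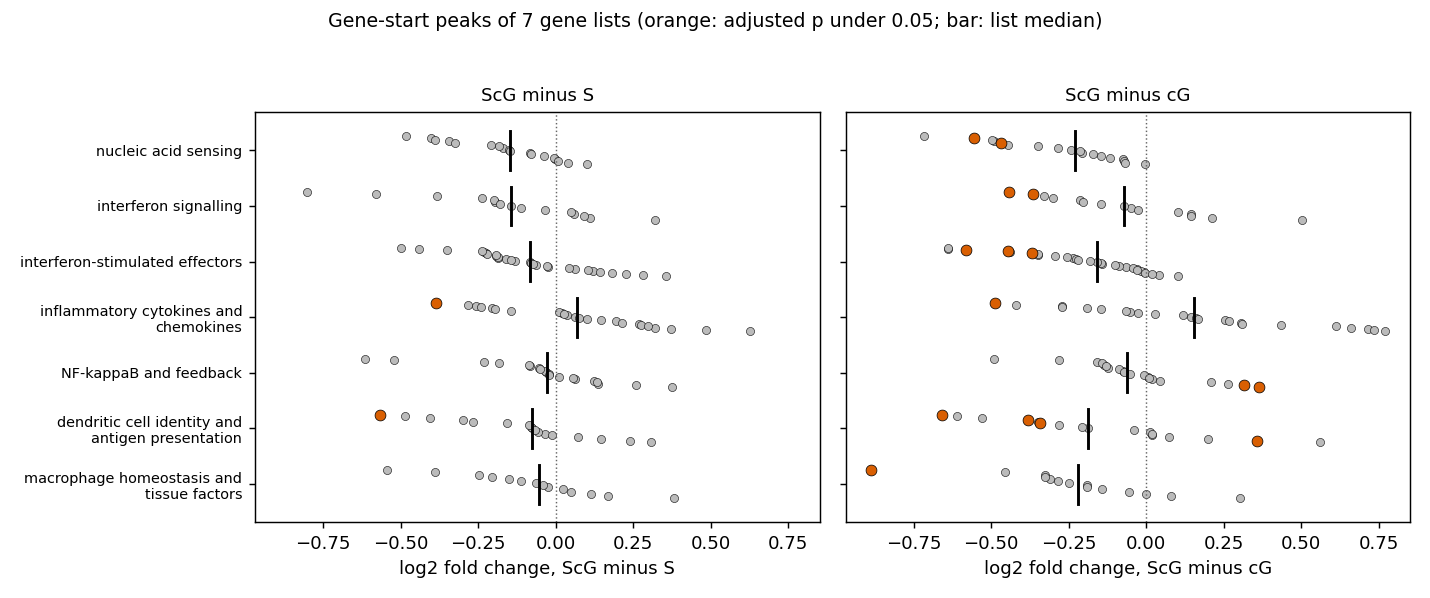
Log2 fold change of ScG against S (left) and against cG (right) for the peak of each gene in 7 gene lists. That peak is over the start site or, for 35 genes, within 1 kb of a gene end. Each point is a peak, orange points have an adjusted p under 0.05 and the bar is the list median. The medians of the 3 antiviral lists lie below 0 in both panels, from -0.07 to -0.23, and that of the inflammatory list above it at 0.07 and 0.15.

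Of 32 interferon-stimulated effector genes, 30 had a peak (29 distinct), 3 of them fell against cG (Oas2, Irgm1 and Parp14) and none changed against S, with medians of -0.08 and -0.15. The Irgm1 peak (chr11:48870737-48873014) had 29.3 and 31.4 CPM in Ctrl, 44.7 and 46.7 in S, 54.5 and 52.5 in cG, and 40.6 and 37.8 in ScG. Again ScG lay above Ctrl and below both single stimuli, by -0.45 ± 0.11 from cG (adjusted p = 0.0043) and -0.22 ± 0.11 from S (adjusted p = 0.454). Without ScG replicate 2 the difference from cG was -0.39 (adjusted p = 0.1). The calls for Oas2 (-0.58 ± 0.19) and Parp14 (-0.37 ± 0.10) were lost without cG replicate 1 or ScG replicate 2, and that for Oas2 also without cG replicate 2. The starts of Isg15, a ubiquitin-like antiviral modifier, and Ifit1, which binds viral RNA, passed no test between the stimuli. Isg15 had 28.9 and 26.4 CPM in S, 27.1 and 27.9 in cG, and 25.0 and 23.5 in ScG, against 8.85 and 10.8 in Ctrl. Ifit1 had 26.9 and 31.2 in S, 27.5 and 25.9 in cG, and 24.4 and 26.7 in ScG.

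Broad peaks at Rsad2, at Acod1 and near Ifih1 fell with the combination, and were chosen after their values were seen. Those at Rsad2 and Acod1 had the lowest p of the falls against S. That near Ifih1 ranked lower and was picked from peaks at the listed genes. The falls next in rank, in or near Gm21188, Acsl1, Spi1, Clec12a and Nfkbia, belong to none of the antiviral lists. A peak of the Rsad2 gene (chr12:26438731-26453446), which encodes the antiviral enzyme viperin, had 25.6 and 28 CPM in Ctrl, 183 and 179 in S, 146 and 180 in cG, and 126 and 128 in ScG. Every ScG library was below every library of S and cG, by -0.51 ± 0.09 (adjusted p = 9.99e-05) and -0.36 ± 0.09 (adjusted p = 0.00457). The start of Rsad2 itself (chr12:26455652-26456964) was not called, at 27.7 and 29.2 CPM in ScG, 32.9 and 31.7 in S, and 32.1 and 30.7 in cG. A peak over Acod1 (chr14:103048034-103061394), the enzyme that makes itaconate, had 131 and 125 CPM in Ctrl, 272 and 269 in S, 237 and 270 in cG, and 196 and 204 in ScG. It fell by 0.44 ± 0.08 against S (adjusted p = 0.000244) and by 0.35 ± 0.08 against cG (adjusted p = 0.00193). Near Ifih1, the gene of the RNA sensor MDA5, a peak (chr2:62587194-62592006) had 40.8 and 45.4 CPM in S, 38.2 and 40.8 in cG, and 30.0 and 30.2 in ScG. It fell by 0.52 ± 0.12 and 0.39 ± 0.12 (adjusted p = 0.0103 and 0.0335). In all these peaks the libraries with the combination kept a level above Ctrl. The mitochondrial share of the ScG libraries also lay near that of Ctrl. With that share as a covariate the fall against S was -0.50 at Rsad2 (adjusted p = 0.46), -0.58 near Ifih1 (adjusted p = 0.604) and -0.75 at Acod1 (adjusted p = 0.00165). Against cG the fall at Rsad2 was not called without cG replicate 2 (-0.20, adjusted p = 0.41) or without ScG replicate 1 (-0.35, adjusted p = 0.0649), and that at Acod1 was not called without the same libraries (-0.25, adjusted p = 0.179, and -0.32, adjusted p = 0.0566). Neither fall near Ifih1 was called when any 1 library of the groups compared was left out, with adjusted p from 0.0549 to 0.247.

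**Figure D4:**
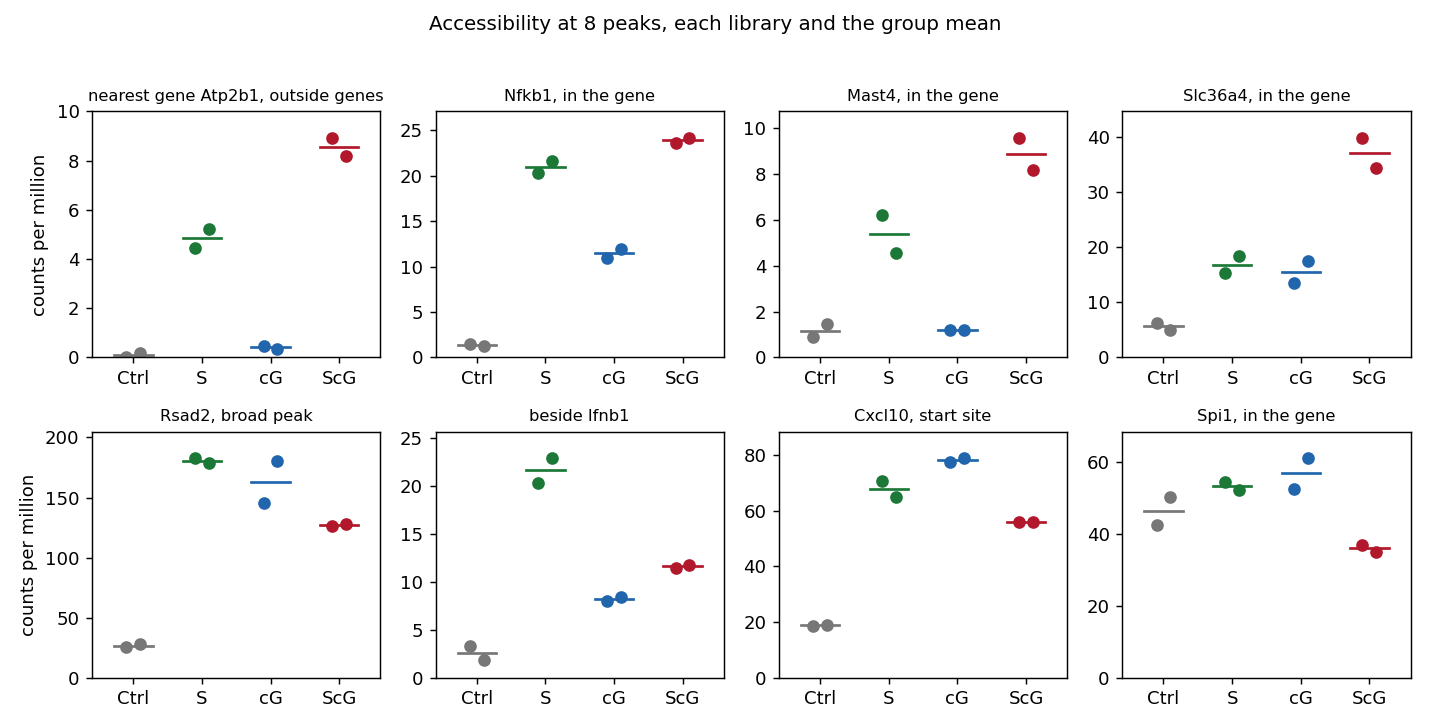
Accessibility in CPM of named peaks in Ctrl, S, cG and ScG; each point is 1 of 2 libraries, the bar is their mean, and each panel has its own axis from 0. ScG is highest at Slc36a4 (39.8 and 34.3 CPM) and lies between Ctrl and both single stimuli at Rsad2 (126 and 128 CPM).

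Of 25 inflammatory cytokines and chemokines, 24 had a peak, and Ccl5 fell against S and Cxcl10 against cG, while the list's medians were 0.07 and 0.15. The Cxcl10 peak (chr5:92344162-92349984) had 18.6 and 19.0 CPM in Ctrl, 70.9 and 65.0 in S, 77.6 and 79.0 in cG, and 55.9 and 55.8 in ScG. It fell by 0.49 ± 0.10 against cG (adjusted p = 0.000549), with -0.28 ± 0.10 against S (adjusted p = 0.218). The peak of Ccl5 (chr11:83521831-83527834), a chemokine gene whose near end it touches and which it shares with the start of Heatr9, had 5.14 and 4.44 CPM in Ctrl, 93.8 and 91.0 in S, 64.3 and 83.6 in cG, and 67.8 and 73.9 in ScG. The difference from S was -0.38 ± 0.10 (adjusted p = 0.0455) and was lost whichever library of S or ScG was left out (adjusted p from 0.147 to 0.346), while cG and ScG overlapped. The starts of the cytokine genes Tnf and Il6 were not called. Tnf had 69.4 and 69.2 CPM in S, 55.0 and 61.6 in cG, and 67.2 and 73.4 in ScG, and Il6 had 18.8 and 20.1, 16.8 and 18.2, and 20 and 21.9.

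Of 20 genes of NF-kappaB and its feedback, Nfkb2 and Nfkbiz rose against cG, where 2.25% of all start-site peaks did, and none changed against S, with medians of -0.03 against S and -0.06 against cG. The peak over the Nfkb2 start (chr19:46303790-46306428) holds the kappaB stretch printed above and the other Nfkb2 start sites. It had 39.9 and 46.6 CPM in Ctrl, 84.3 and 74.7 in S, 69.9 and 70.4 in cG, and 86.5 and 88.2 in ScG. The rise of 0.32 ± 0.09 over cG (adjusted p = 0.0274) was called in 9 of 16 alternatives, and in none of the fits that left out a library of cG or ScG (0.31 to 0.33, adjusted p from 0.108 to 0.15). A peak of Nfkbiz, an atypical inhibitor of kappaB that acts in the nucleus, had 66.3 and 64.5 CPM in S, 52.4 and 59.0 in cG, and 71.0 and 72.3 in ScG (0.36 ± 0.10 over cG, adjusted p = 0.0133), a rise not called without cG replicate 1 (0.28, adjusted p = 0.206), ScG replicate 1 (0.38, adjusted p = 0.0724) or ScG replicate 2 (0.35, adjusted p = 0.1). In both peaks S and ScG lay above cG. Inside Nfkb1, the gene of the other NF-kappaB precursor, 5 peaks rose over cG, and they were looked at after their values were seen. The one with the lowest p (chr3:135640041-135640780) had 1.53 and 1.25 CPM in Ctrl, 20.3 and 21.6 in S, 10.9 and 12.0 in cG, and 23.6 and 24.1 in ScG. It rose by 1.06 ± 0.15 over cG (adjusted p = 6.53e-08), was called in all 16 alternatives, in contrast to the other 4 with 8, 10, 11 and 14, each lost without at least 1 library, and did not pass against S (0.19 ± 0.14, adjusted p = 0.698). At Nfkbia, the gene of the inhibitor IkappaB-alpha, a peak in the gene (chr12:55485645-55489550) fell by 0.51 ± 0.10 against S and 0.42 ± 0.11 against cG (adjusted p = 0.00218 and 0.00613), from 58.2 and 56.0 CPM in S and 54.3 and 52.9 in cG to 40.7 and 39.2 in ScG. That fall was not called against S without S replicate 1 or ScG replicate 2 (-0.49 in both cases, adjusted p = 0.0999 and 0.101), nor against cG without cG replicate 1 or ScG replicate 2 (-0.40 and -0.39, adjusted p = 0.0537 and 0.0912).

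Genes of dendritic cell identity gave few calls. Of 20 such genes, 17 had a peak: Spi1 fell against both single stimuli, Id2 and Cebpb fell against cG, and Csf2ra rose against cG. Of all start-site peaks 3.11% were lower and 2.25% higher than in cG, and 0.0942% were lower than in S. A peak in Spi1 (chr2:91081785-91085146), the gene of the myeloid factor PU.1, had 42.5 and 50.4 CPM in Ctrl, 54.4 and 52.3 in S, 52.7 and 61.2 in cG, and 37.0 and 35.1 in ScG, the lowest of the 4 groups. It fell by 0.57 ± 0.11 against S (adjusted p = 0.00107) and by 0.66 ± 0.11 against cG (adjusted p = 6.35e-06). The fall against S was not called without S replicate 1 (-0.54, adjusted p = 0.0685) or ScG replicate 2 (-0.53, adjusted p = 0.0833). The start of Csf2ra, a receptor subunit for GM-CSF, had 86.0 and 79.3 CPM in S, 69.1 and 73.7 in cG, and 95.2 and 87.9 in ScG, a rise of 0.36 ± 0.09 over cG (adjusted p = 0.00772), not called without cG replicate 1 (0.31, adjusted p = 0.112) or ScG replicate 1 (0.30, adjusted p = 0.15). The calls for Id2 and Cebpb were lost whichever library of cG or ScG was left out. Of 14 genes of macrophage homeostasis, Nr1h3, the gene of the lipid sensor LXR-alpha, fell against cG by 0.89 ± 0.26 (adjusted p = 0.03), at 8.75 and 12.3 CPM in cG and 5.30 and 6.12 in ScG. With the mitochondrial share as a covariate that difference was 0.37, of the opposite sign, and it was not called without cG replicate 2, ScG replicate 1 or ScG replicate 2 (-0.62 to -0.99, adjusted p from 0.108 to 0.376).

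Of the 3609 peaks that the virus raised over cGAMP, 5.96% overlapped a start site, beside 8.00% of all tested peaks. The 2404 that were also higher than Ctrl did so in 1.7% of cases, the 1111 not called against Ctrl in 12.7% and the 94 lower than Ctrl in 35.1%. The median of the 2404 was 1.37 against cG and 0.45 against S. The ScG libraries entered both the choice of these peaks and both medians, so neither median is a reading apart from that choice. The peaks with the lowest p were chosen after their values were seen. The first (chr10:98503833-98504445) lies in no gene, with Atp2b1 the nearest at 410185 bases. It had 0 and 0.193 CPM in Ctrl, 4.45 and 5.23 in S, 0.477 and 0.358 in cG, and 8.93 and 8.19 in ScG. Both ScG libraries were above all others, and the rise was 4.34 ± 0.42 over cG (adjusted p = 1.86e-15) and 0.82 ± 0.29 over S (adjusted p = 0.192). The rise over cG was called in all 16 alternatives and also with zymosan (ZScG against ZcG 2.02, adjusted p = 0.000126) and with PAM (PScG against PcG 1.17, adjusted p = 0.0154).

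Other virus-added peaks had the same order of groups, with cG between Ctrl and S or near Ctrl, and ScG at or above S. They too were chosen by their rise in ScG over cG, which favours high ScG values. One outside genes near Rnf180 (chr13:105307588-105308405), a ubiquitin ligase gene, had 2.62 and 2.32 CPM in Ctrl, 11.3 and 10.9 in S, 3.50 and 3.37 in cG, and 15.5 and 15.5 in ScG. The rise over cG was 2.17 ± 0.22 (adjusted p = 2.03e-14). A peak in Mast4, a kinase gene (chr13:103102493-103103273), had 0.874 and 1.45 CPM in Ctrl, 6.22 and 4.55 in S, 1.19 and 1.22 in cG, and 9.58 and 8.19 in ScG (2.88 ± 0.30, adjusted p = 4.8e-14). In Gtf2b, the gene of a general transcription factor, a peak (chr3:142773265-142774072) had 9.94 and 10.6 CPM in S, 2.31 and 2.87 in cG, and 12.5 and 13.4 in ScG (2.31 ± 0.25, adjusted p = 1.77e-13). The peak near Hs1bp3 (chr12:8386297-8387282) had 38.9 and 32.6 CPM in S, 19.3 and 14.4 in cG, and 44.2 and 41.1 in ScG (1.34 ± 0.14, adjusted p = 2.03e-14). In none of these 4 did ScG pass the test against S. A peak of Tbc1d4, a regulator of Rab GTPases (chr14:101462914-101463727), had another order, in which ScG was at the level of Ctrl. It had 32.8 and 31.5 CPM in Ctrl, 23.2 and 26.0 in S, 13.0 and 12.4 in cG, and 33.1 and 31.1 in ScG (1.34 ± 0.13 over cG, adjusted p = 1.96e-14).

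Over all peaks in or within 5 kb of the genes of the 7 lists, 22 of 1131 (1.95%) were higher and 36 (3.18%) lower than in cG, counting a peak once in each list, beside 3.02% and 1.92% of all tested peaks. Against S, 1 (0.0884%) was higher and 7 (0.619%) lower, beside 0.477% and 0.102% of all tested peaks. Single peaks among these were again chosen after their values were seen. One in Il15 (chr8:82372729-82373535), a cytokine gene, had 12.2 and 12.2 CPM in S, 8.51 and 7.52 in cG, and 12.6 and 18 in ScG (0.93 ± 0.22 over cG, adjusted p = 0.00343), which was not called without cG replicate 2 (0.84, adjusted p = 0.0959) or ScG replicate 2 (0.65, adjusted p = 0.207). One in Flt3 (chr5:147371276-147371820), a growth factor receptor gene of dendritic cell development, had 4.65 and 4.80 CPM in S, 2.15 and 2.58 in cG, and 8.19 and 8.30 in ScG (1.79 ± 0.32 over cG, adjusted p = 3.28e-05). Weaker peaks rose over cG near the genes Il10 (1.36 ± 0.35), Il27 (2.49 ± 0.63) and Ptgs2 (3.10 ± 0.62), with at most 7.21 CPM in any library of these groups. Each of these 3 was lost without cG replicate 2 and 1 of the ScG libraries, and Il10 also without cG replicate 1. In the other direction a peak near Cmpk2 fell by 1.79 ± 0.37 and one near Ccl7 by 1.52 ± 0.30 against cG (adjusted p = 0.000527 and 0.000152), and the fall near Ccl7 was lost without ScG replicate 1 (-1.05, adjusted p = 0.0916).

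Peaks that the virus lowered from the level with cGAMP were stronger than those it raised, with a median level of 9.76 CPM for the 2291 against 4.22 for the 3609, and 13.0% of them overlapped a start site. The lowest p belonged to a peak over the start of Tldc2 (chr2:157086529-157094690). It had 14.7 and 15.3 CPM in Ctrl, 28.3 and 30.1 in S, 43.0 and 44.1 in cG, and 22.0 and 23.6 in ScG, so that ScG was nearer S than cG. It fell by 0.93 ± 0.13 against cG (adjusted p = 5.93e-09), with -0.36 ± 0.13 against S (adjusted p = 0.21). A peak shared by Fth1, the gene of the ferritin heavy chain, and Best1 (chr19:9984120-9987901) had 23.4 and 24.1 CPM in S, 32.6 and 37.8 in cG, and 18.9 and 20.7 in ScG (-0.84 ± 0.12, adjusted p = 7.12e-08). Both groups of ScG and S libraries lay below those of cG there. Against all peaks, levels also mattered: the sixth of peaks with the highest mean level had a median of -0.08 against cG and the sixth with the lowest 0.22.

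Of the 570 peaks that cGAMP raised over the virus, 18.4% overlapped a start site, beside 8.00% of all tested peaks. Of these 570, 332 were not called against Ctrl, with 24.1% at start sites, 179 were higher than Ctrl, with 2.2%, and 59 were lower than Ctrl, with 35.6%. Of the 570, 17 (2.98%) lay on unplaced scaffolds, beside 0.147% of all tested peaks. Peaks with the lowest p included several whose ScG values lay at or above Ctrl and whose S values lay below it. One of these, in Sfi1 (chr11:3140434-3145578), had 69.7 and 86.3 CPM in Ctrl, 52.4 and 53.8 in S, 58.6 and 42.6 in cG, and 89.0 and 91.1 in ScG (0.76 ± 0.10 over S, adjusted p = 6.16e-08). Another, outside genes with Gpd2 nearest at 258642 bases (chr2:57629361-57629868), had 70.7 and 70.1 CPM in Ctrl, 45.9 and 45.8 in S, 63.7 and 50.6 in cG, and 75.6 and 81.0 in ScG (0.77 ± 0.10, adjusted p = 6.16e-08). The mitochondrial share has the same order in these groups, with Ctrl and ScG above S and cG. With that share as a covariate neither rise over S was called, at 0.62 in Sfi1 (adjusted p = 0.345) and 0.47 near Gpd2 (adjusted p = 0.617). Its part in these peaks was not tested further.

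The loci with their highest level in the combination were the 137 peaks above S, cG and Ctrl. They had a median of 0.97 over S and 1.10 over cG, 80 of them lay in genes, 4 overlapped a start site, and 14 lay over 100 kb from any gene. Of the 77 genes they lie in, Sox5 held 4 and Reps1 held 2. The lowest p belonged to a peak in Slc36a4 (chr9:15725978-15726818), the gene of an amino acid transporter. It had 6.23 and 5.02 CPM in Ctrl, 15.3 and 18.4 in S, 13.4 and 17.4 in cG, and 39.8 and 34.3 in ScG. Both single stimuli lay above Ctrl and overlapped each other, and ScG was above both by 1.14 ± 0.14 (adjusted p = 7.2e-10) and 1.26 ± 0.14 (adjusted p = 1.62e-12). The calls against S and against cG were made in all 16 alternatives.

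Several of the 137 had this graded order, and were chosen after their values were seen. A peak near Arl6, the gene of a small GTPase of cilia (chr16:59608782-59609563), had 0.874 and 1.35 CPM in Ctrl, 5.43 and 4.00 in S, 4.62 and 2.87 in cG, and 15.2 and 11.5 in ScG. ScG was above S by 1.5 ± 0.24 (adjusted p = 2.77e-05) and above cG by 1.84 ± 0.26 (adjusted p = 1.88e-08). One in Sec22c, a gene of vesicle transport (chr9:121701328-121702528), had 7.65 and 11.3 CPM in S, 6.52 and 8.89 in cG, and 18.2 and 19.1 in ScG (0.97 ± 0.17 and 1.27 ± 0.17). In both of these the ScG libraries were clear of all the other 6. The rise over S was not called for Sec22c without S replicate 1 (0.72, adjusted p = 0.135). Other peaks of the class were near the level of Ctrl with either stimulus alone. A peak in Sox5, a transcription factor gene (chr6:143867820-143868672), had 31.7 and 26.7 CPM in Ctrl, 26.6 and 30.2 in S, 23.9 and 22.6 in cG, and 47.0 and 44.3 in ScG (0.68 ± 0.11 and 0.97 ± 0.12). The start of Clcn4, a chloride and proton exchanger (chr7:7297989-7301099), had 150 and 134 CPM in Ctrl, 158 and 179 in S, 182 and 161 in cG, and 235 and 229 in ScG (0.46 ± 0.08 and 0.44 ± 0.08). With the mitochondrial share as a covariate no rise over S was called at Arl6 (1.62, adjusted p = 0.302), Sec22c (0.69, 0.687), Sox5 (0.59, 0.55) or Clcn4 (0.48, 0.345). Over cG the rise was then called at Arl6 (adjusted p = 0.0284) and Sox5 (0.0389), but not at Sec22c (0.203) or Clcn4 (0.206). Without S replicate 1 the rise over S was 0.60 at Sox5 (adjusted p = 0.0501) and 0.37 at Clcn4 (adjusted p = 0.107).

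The 61 peaks below S, cG and Ctrl had medians of -1.13 against S and -1.25 against cG, and 43 of them overlapped genes, none of which held 2. A peak in Clec12a, the gene of an inhibitory C-type lectin (chr6:129363007-129363808), had 11.4 and 10.7 CPM in Ctrl, 9.09 and 8.18 in S, 8.91 and 8.31 in cG, and 3.44 and 4.26 in ScG. It fell by 1.17 ± 0.23 against S (adjusted p = 0.00152) and by 1.17 ± 0.24 against cG (adjusted p = 0.000337). One in Tfeb, a regulator of lysosome genes (chr17:47768405-47769569), had 21.7 and 19.99 CPM in S, 23.2 and 24.5 in cG, and 15.0 and 12.1 in ScG (-0.61 ± 0.15 and -0.81 ± 0.15). The start of Vamp8, a membrane fusion gene (chr6:72389472-72390817), had 15.2 and 12.5 CPM in S, 13.9 and 15.2 in cG, and 8.74 and 7.43 in ScG (-0.77 ± 0.19 and -0.84 ± 0.19). In these 3 the lowest Ctrl library was above both ScG libraries. Against S, Clec12a was not called without S replicate 1 (-1.09, adjusted p = 0.0746) or ScG replicate 1 (-1.02, adjusted p = 0.116), and Tfeb and Vamp8 were not called without 3 of the 4 libraries, with adjusted p from 0.0706 to 0.364. Near Acsl1, a fatty acid activating enzyme, a peak (chr8:46541059-46545413) belonged to the 90 but not the 61. It had 2.84 and 4.05 CPM in Ctrl, 24.5 and 25.6 in S, 23.6 and 29.5 in cG, and 10.8 and 17.8 in ScG, between Ctrl and the single stimuli (-0.82 ± 0.16 and -0.91 ± 0.16). Without ScG replicate 1 neither was called (-0.49 and -0.58, adjusted p = 0.31 and 0.0755).

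Naming the 6 peaks with the largest change in each direction among calls without overlap and at a mean of at least 1 CPM gave peaks of low level, and none at an immune gene of the lists. Above S these were near or in Mtap, Atxn7, Fggy, Vmn1r2, Zfp160 and Gm21119, with log2 fold changes from 2.25 to 3.23. Below S they were Nek9, Figla, Otud5, Neurl1a, Bcl2l11 and Sdccag8, from -2.34 to -2.79. Above cG they were Klri2, Dlgap3, Atp2b1, Ebf1, Magi3 and Mdfic, from 4.09 to 4.69, and the Atp2b1 peak was described above. Below cG they were Slc1a2, F12, Atg3, Epb41l1, Gm50595 and Ccdc13, from -2.80 to -3.35. Apart from Atp2b1 no library at these peaks was above 4.74 CPM, and leaving out 1 library of the groups compared ended every call against S, all 6 below cG and, of the 6 above cG, Ebf1. The peak near Mtap (chr4:89057149-89057353) had 0.131 and 0.308 CPM in S, 0.477 and 0.143 in cG, and 2.14 and 2.19 in ScG. Above both single stimuli, Wars2, Ptprk and 4930467E23Rik joined Mtap, Zfp160 and Gm21119, and below both were Neurl1a, Vav2, Map4k4, Gvin1, Mcam and Tmem154. The strongest of these, in 4930467E23Rik, had 1.05 and 2.21 CPM in S, 1.99 and 0.645 in cG, and 6.05 and 6.88 in ScG.

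With PAM or zymosan present the additions had other sizes. With PAM the order of the 2 additions was reversed, at 719 peaks called for cGAMP added to the virus and 492 for the virus added to cGAMP. With zymosan the order was kept, at 70 and 3333. In PAM the combination was higher than PS at 440 peaks (0.368%) and lower at 279 (0.234%), and higher than PcG at 241 (0.202%) and lower at 251 (0.21%). With zymosan it was higher than ZS at 17 peaks (0.0142%) and lower at 53 (0.0444%), and higher than ZcG at 1134 (0.949%) and lower at 2199 (1.84%). The difference between additions was tested directly. The effect of adding the virus to cGAMP differed with PAM at 751 peaks (0.629%), with a log2 fold change above that without PAM at 186 and below it at 565, and with zymosan at 1427 (1.19%), above at 278 and below at 1149. The effect of adding cGAMP to the virus differed with PAM at 49 peaks (0.041%), above at 3 and below at 46, and with zymosan at 90 (0.0753%), above at 18 and below at 72.

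Single peaks show these differences, although each was picked partly by the comparison that the difference contains. At Slc36a4 the combination was 0.22 above PS, 0.23 above PcG, 0.28 above ZS and -0.04 from ZcG, none of them called. The effect of adding the virus to cGAMP there was smaller with PAM (difference -1.04, adjusted p = 0.000527) and with zymosan (-1.30, adjusted p = 5.92e-06), and so was that of adding cGAMP to the virus (-0.92, adjusted p = 0.0174, and -0.86, adjusted p = 0.0264). In Unc5c, a netrin receptor gene, a peak (chr3:141537912-141538808) had 13.5 and 14.2 CPM in S, 10.7 and 9.17 in cG, and 23.9 and 22.6 in ScG (0.75 ± 0.13 and 1.23 ± 0.14), and turned the other way with PAM, at -0.59 against PS and -0.52 against PcG, both called. The differences between additions there were -1.75 and -1.34 with PAM (adjusted p = 2.28e-12 and 4.22e-07, virus added and cGAMP added) and -1.66 and -1.30 with zymosan (adjusted p = 3.67e-09 and 1.15e-05). At Rsad2 the combination was 0.41 above ZS (adjusted p = 0.028) where it was below S, a difference of 0.92 between additions (adjusted p = 7.75e-07). The Ccl5 peak was 0.60 above both ZS and ZcG (adjusted p = 0.00266 and 0.000167). The region beside Ifnb1 repeated its order with PAM, 0.89 below PS (adjusted p = 0.00883) and 1.00 above PcG (adjusted p = 0.0104). Over the 3 antiviral lists read with PAM or zymosan, list medians lay between -0.10 and 0.08.

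Sets of peaks chosen in other libraries, which share none with S, cG and ScG, gave a reading that this choice does not enter. Over all tested peaks 3.02% were higher and 1.92% lower than in cG, and 0.477% and 0.102% than in S. The 11178 peaks higher in PS than P (9.36%) had a median of 0.10 in ScG against cG, with 944 called higher (8.45%) and 291 lower (2.60%), and the 10485 lower in PS than P (8.78%) had -0.04, with 3.25% and 3.95%. The 7923 higher in ZS than Z (6.63%) had 0.16, with 800 (10.1%) and 104 (1.31%), and the 10195 lower (8.53%) had -0.06, with 3.47% and 5.14%. For cGAMP, sets chosen in opposite directions both held more called-higher than called-lower peaks against S. The 8826 higher in PcG than P (7.39%) had a median of 0.04, with 84 (0.952%) and 19 (0.215%), and the 8776 lower (7.35%) had 0.01, with 80 (0.912%) and 22 (0.251%). The 4927 higher in ZcG than Z (4.12%) had 0.05, with 52 and 10, and the 5913 lower (4.95%) had 0.00, with 41 and 14. Peaks chosen by the addition itself moved further. The 241 higher in PScG than PcG had a median of 0.79 in ScG against cG, with 111 called higher and none lower, and the 1134 higher in ZScG than ZcG had 0.64, with 320 and 3. The 440 higher in PScG than PS had a median of 0.76 in ScG against S, with 133 called higher and none lower. Those 133 are 30.2% of the 440 and 23.3% of the 570. The sets lower by the same additions had medians of -0.20 (7 higher, 39 lower), -0.12 (61 and 235) and -0.15 (1 and 8) in the same order. The median of all tested peaks was 0.01 in both comparisons. The mitochondrial shares of PScG, PS and PcG did not separate the groups as those of ScG, S and cG did.

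**Figure D5:**
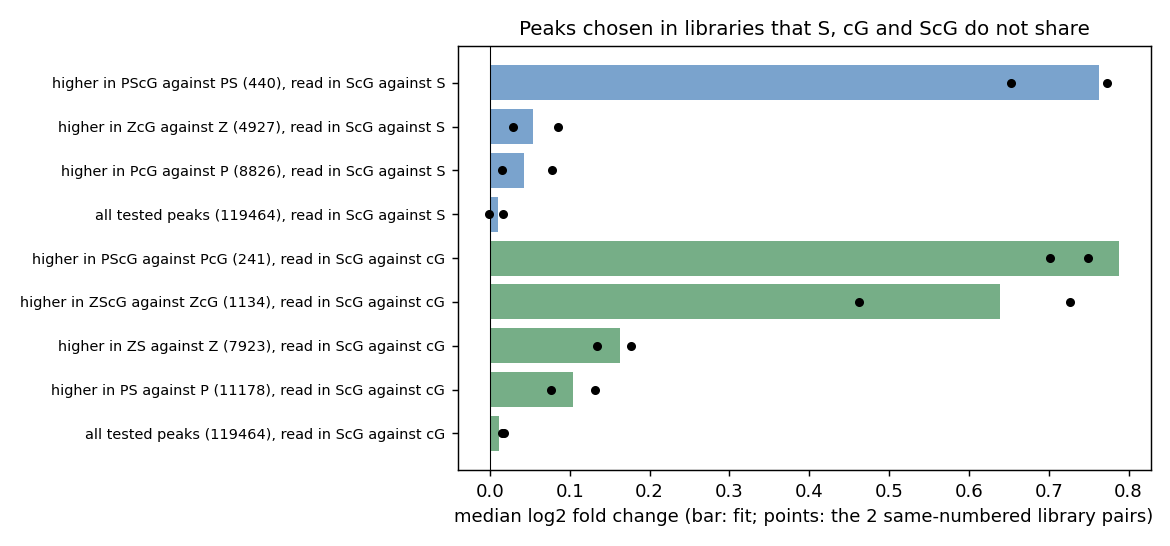
Median log2 fold change in ScG against cG or ScG against S over sets of peaks chosen as higher in libraries with PAM or zymosan; the bar is the fit, the points are the 2 same-numbered library pairs, and set sizes are in parentheses. The sets chosen by adding the same stimulus to the other with PAM or zymosan reach 0.64 to 0.79, and the sets chosen by a single stimulus 0.04 to 0.16.

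Read in those same libraries, the 137 peaks above S, cG and Ctrl had smaller shifts. Their medians were 0.29 in PScG against PS (26 called higher, 1 lower), 0.19 against PcG (6 and 1), 0.27 in ZScG against ZS (2 and 0) and 0.32 against ZcG (26 and 3). The 61 peaks below all 3 groups had medians of -0.29, -0.18, -0.25 and -0.26 in the same order, with 0, 0, 0 and 0 called higher and 4, 0, 1 and 5 called lower. All 8 medians kept the direction seen without another ligand.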

How the data were processed

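ATAC-seq had been run on 36 libraries of bone-marrow-derived dendritic cells, 2 per group. The authors deposited a table of whole-number read counts for 119751 peaks on mm10, the same peaks in every library. The submitters' processing notes name Bowtie2 2.2.9, MACS2 (given as 1.4), bedtools and featureCounts, with no role or order. Whether duplicates or mitochondrial reads were removed before counting is not given in the sources used here. The peak that spans the mitochondrial chromosome (1 to 16299) was left out of library sizes and tests. Counts were scaled by TMM and fitted with edgeR 4.0.16 (R 4.3.3) by the quasi-likelihood test over all 36 libraries in 18 groups, with 18 residual degrees of freedom. The edgeR expression filter (minimum count 10) dropped 286 peaks, and p-values were adjusted by Benjamini-Hochberg over the remaining 119464, with a threshold of 0.05. Standard errors are the log2 fold change divided by the square root of the F statistic. The fit was tested on simulated counts.

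Peaks were placed by the RefSeq gene table for GRCm38.p6, the assembly behind mm10, which gives gene bounds but no exons. A gene's peak is the one over its start site or, for 35 genes, within 1 kb of a gene end. Mx1, Mx2 and Cxcl11 are not in the tables. Promoter sequences are RefSeq's, and 105 of 144 list genes matched one. The 6 peaks named per direction had the largest log2 fold change among calls whose libraries did not overlap and whose mean level was at least 1 CPM. Other named peaks had the lowest p or lay at a listed gene. The libraries compared, the gene lists and the motifs were chosen with earlier results of these data known. Replicates correlated at r from 0.922 to 0.949, and the counts of each pair differed by more than sampling noise. Alternatives were DESeq2 1.42.0 (Wald test, and its size factors in edgeR), scaling by total counts outside the mitochondrial peak without TMM, and abundance-dependent offsets. Further ones were the mitochondrial peak kept, the mitochondrial share as a covariate, no filter, thinning to 1 depth and a fit of 4 groups. The last were a replicate block and leaving out each of 6 libraries.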

Additional observations from a re-analysis of the deposited data

Results flagged for a closer look

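The effect of adding 1 stimulus to the other was compared between cells with and without another ligand, with an interaction term in edgeR, and each of the 4 comparisons found peaks that differ at an adjusted p under 0.05. Adding Sendai virus to cGAMP differed with zymosan at 1427 peaks, with a log2 fold change above that without zymosan at 278 and below it at 1149, and 676 of the 1427 were called for that addition without zymosan. The same addition differed with PAM at 751 peaks, 186 above and 565 below, of which 614 were called without PAM. Of all tested peaks 4.94% were called for that addition without another ligand. Both differences contain the comparison of ScG with cG, so these overlaps are partly built in. Adding cGAMP to Sendai virus differed with zymosan at 90 peaks, 18 above and 72 below, and with PAM at 49, 3 above and 46 below. At an unadjusted p under 0.05 the numbers were 15297, 13582, 9542 and 8672. The mitochondrial share separated ScG from S and cG but not PScG from PS and PcG, and its part in these differences was not tested.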

How the results depend on the processing

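Counts and medians were recomputed under 10 other settings and without each of 6 libraries. With the mitochondrial share as a covariate the peaks higher and lower than S numbered 5 and 1, than cG 169 and 23, than both 5 and 1, and than both and Ctrl 2 and 0. With total counts outside the mitochondrial peak as scaling they numbered 232 and 5955, 2009 and 12503, 84 and 4414, and 50 and 1516. Thinned to 1 depth, 370 and 68 peaks differed from S, 1440 were lower than cG, 214 and 43 lay beyond both and 85 and 24 beyond both and Ctrl. Leaving out each library in turn gave 65 to 596 peaks higher and 15 to 123 lower than S, 1412 to 3479 and 524 to 2200 for cG, 46 to 286 and 13 to 67 beyond both, and 19 to 112 and 7 to 55 beyond both and Ctrl. In those fits a group left with 1 library was assumed to vary like the others. Apart from fewer samples or counts, the cause of these shifts was not tested.

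Same-numbered libraries did not deviate together (r of replicate differences from -0.012 to 0.0027), so the number does not pair them. A replicate block gave 563 peaks higher and 124 lower than S and 3568 and 2256 for cG, with 211 of 214 named calls kept. With the mitochondrial share as a covariate, 25 of the 214 named calls were kept, 186 were lost and 3 changed sign.

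Set medians are given here relative to all peaks. With the mitochondrial share as a covariate they were 0.0176 for PS over P (0.0919 without it), 0.0564 for PS under P, -0.0991 for ZS over Z (0.1515), 0.068 for ZS under Z, -0.0688 for PcG over P (0.0331), 0.1532 for ZcG over Z (0.0446), 0.1328 for ZScG over ZcG (0.6276) and 0.4699 for PScG over PS (0.7538), and the differences from cG became -0.063 near Olfr161, 0.3718 at Nr1h3 and 0.0137 in Csf1r. For ZS over Z the median was 0.0653 with total counts, 0.1059 with abundance-dependent offsets and 0.1213 with DESeq2. For PScG over PcG (0.7761) it was 0.8535, 0.7417 and 0.5894 in the same order, 0.6651 thinned, and 0.6223 to 0.8111 without 1 library. For ZScG over ZcG the offsets gave 0.4281, and for PScG over PS leaving out a library gave 0.6624 to 0.7888.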
